A study of Mus musculus with 4 samples.

Results

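The histone genes were the 84 of 24421 listed genes whose symbols begin with *Hist1h* to *Hist4h*, *H1f*, *H2af* or *H3f*. They were divided by symbol into 68 replication-dependent genes, which have *Hist* symbols, and 16 replication-independent genes. RNA was sequenced from FACS-sorted CD69+DP thymocytes (CD4+CD8+ cells that carry CD69, a surface protein induced by TCR signalling) of C57BL/6 mice aged 6 weeks. Both groups carried floxed *Foxa1* and *Foxa2* alleles, written Foxa1fl/flFoxa2fl/fl. The 2 control samples were CD4Cre-, and the 2 Foxa1/2cKO samples, named cKO 1 and cKO 2 here, were CD4Cre+, so that the *Cd4* promoter drove Cre in T-lineage cells. Every sample was sorted from different mice, and from how many mice each was pooled is not given without ambiguity in the sources used here. The comparison asked which genes differ between CD69+DP cells with and without the 2 forkhead transcription factors.

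Histones package DNA into nucleosomes, with an octamer of H2A, H2B, H3 and H4 as the core and H1, the linker histone, bound where DNA enters and leaves. Replication-dependent histone genes lie in clusters and are transcribed mainly in S phase, and their mRNAs end in a conserved stem-loop in place of a poly(A) tail. Replication-independent genes encode variants that are made throughout the cell cycle, including H3.3, H2A.Z, H2A.X, macroH2A and the linker histones H1.0 and H1X, and their mRNAs are usually spliced or polyadenylated. H1.0, the product of *H1f0*, is known for accumulating in cells that have left the cycle or differentiated, while DP thymocytes include both cycling blasts and small resting cells.

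The stem-loop was searched for in annotated mouse transcripts as 6 bases beginning with GG, any 4 bases, and the reverse complement of the 6. It was present after the stop codon of 46 of the 68 replication-dependent genes and began 21 to 58 bases after it, with a median of 31. Among the 40 whose annotated transcript runs at least 80 bases past the stop codon, 36 (90%) had it, while 0 of the 17 annotated with under 50 bases there did. Counted in the same way for both, the letters were in the last 150 bases of 24 of the 68 (35.3%) and of 0.533% of all 55341 annotated genes. Sites are shown for examples among the genes described below, from GENCODE transcripts of the mm10 assembly, with the 16 bases of the stem and loop in capitals.
Hist1h1c: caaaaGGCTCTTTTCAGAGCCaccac
Hist1h1d: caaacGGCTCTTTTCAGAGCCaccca
Hist3h2ba: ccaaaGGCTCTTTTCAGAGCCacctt
Hist1h2ag: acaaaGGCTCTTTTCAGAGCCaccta
Hist1h3c: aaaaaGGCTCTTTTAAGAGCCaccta
Hist1h4b: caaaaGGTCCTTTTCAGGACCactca
Hist2h4: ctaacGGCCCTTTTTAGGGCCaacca
H2afx: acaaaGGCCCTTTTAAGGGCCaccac
The first form was shared by 26 genes, and the H4 genes with a site carried other forms. *H2afx*, which encodes the DNA-damage variant H2A.X and is grouped by symbol with the replication-independent genes, had a site of the same kind 46 bases after its stop codon. The other replication-independent match, in *H2afj*, had different letters and lay 142 bases after the stop codon. *H1f0*, annotated with 1198 bases after its stop codon, had no match.

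Promoters from RefSeq (GRCm38.p6, 250 bases before to 50 after each start) were matched for 61 replication-dependent and 13 replication-independent genes, of 27025 promoters in all. CCAAT, searched on both strands, was present in 85.2% of the replication-dependent promoters, 69.2% of the replication-independent ones and 37.9% of all. AAACACA, the H1 box of linker histone promoters, was present in 5 of 6 *Hist1h1* promoters and in 4 of the other 55 replication-dependent ones, against 7.14% of all promoters. TGTTTAC or TGTTTGC, forkhead-type letters, were present in 4.92% of the replication-dependent promoters and 8.34% of all, and in 0 of the 13 replication-independent ones. TATAAA, a search added after the values were seen, was present in 57.4%, 7.69% and 14.2% of the replication-dependent, replication-independent and all promoters. The promoters of the most abundant *Hist1h1* gene and of *H1f0* are shown to set the 2 kinds of linker histone gene side by side, with the letters searched for in capitals. The first is *Hist1h1c* at chr13:23738557-23738856 on the plus strand and the second *H1f0* at chr15:79027962-79028261 on the plus strand.
Hist1h1c: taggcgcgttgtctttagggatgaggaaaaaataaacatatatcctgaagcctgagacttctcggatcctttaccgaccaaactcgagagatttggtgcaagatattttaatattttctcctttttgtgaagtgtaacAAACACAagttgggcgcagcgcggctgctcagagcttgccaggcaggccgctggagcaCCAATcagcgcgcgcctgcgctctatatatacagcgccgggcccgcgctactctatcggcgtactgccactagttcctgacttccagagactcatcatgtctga
H1f0: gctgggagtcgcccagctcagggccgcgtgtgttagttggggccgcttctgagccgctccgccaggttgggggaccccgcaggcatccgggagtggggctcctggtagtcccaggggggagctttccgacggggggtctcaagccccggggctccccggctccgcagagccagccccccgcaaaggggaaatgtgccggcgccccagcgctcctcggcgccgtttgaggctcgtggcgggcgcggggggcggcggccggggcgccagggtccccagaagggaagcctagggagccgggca
The *H1f0* window held none of the 4 sets of letters. Its RefSeq start lies upstream of the start at 79028450 that GENCODE gives the gene. The window ends at 79028261, before that GENCODE start, and the bases next to the GENCODE start were not searched. A match or its absence describes these letters in this window and says nothing about binding.

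Levels are given as the deposited FPKM (reads per length of gene and depth of sample). Their steps gave whole reads for 99.98% of the 16069 genes above 0, up to a common divisor of each gene's reads. On the listed genes 14310464 and 12920734 reads were recovered in the controls, 10277221 in cKO 1 and 11152133 in cKO 2. Both Foxa1/2cKO libraries were thus shallower than both controls. Reads given below are not corrected for depth, while FPKM are. *Foxa1* and *Foxa2* were listed at 0 in all 4 samples, so that they do not check the genotypes. *Cd4*, *Cd8a* and *Cd69*, which define the sorted population, lay at 342 to 446, 475 to 666 and 103 to 121 FPKM. The library cKO 2 stood apart on the first principal component (65.2% of the variance), at 28.5 against -11.0 to -7.42 in the other samples. Every result below is therefore given by sample. The groups were compared with limma on log2(FPKM + 1), a scale that shrinks the fold change of low genes, for the 10776 genes that reached 1 FPKM in 2 or more samples. Of these genes 1 (0.00928%) had a Benjamini-Hochberg adjusted p under 0.05 and 490 (4.55%) an unadjusted p under 0.05. The filter kept 49 of the 68 replication-dependent and 9 of the 16 replication-independent genes. None of these 58 passed at an adjusted p of 0.05, and 2 had an unadjusted p under 0.05, *H1f0* lower and *Hist2h3b* higher in Foxa1/2cKO.

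*H1f0*, the gene for linker histone H1.0 on chromosome 15 of mm10 (79028450 to 79030504, plus strand, 1 exon), was lower in Foxa1/2cKO. It reached 57.4 and 65.4 FPKM in the 2 controls but 32.4 in cKO 1 and 31.5 in cKO 2, from 1968, 2032, 801 and 800 recovered reads. The groups did not overlap, and the 2 Foxa1/2cKO samples lay closer together than the 2 controls. The group means were 61.4 ± 5.62 (SD, n = 2) and 31.96 ± 0.642 (SD, n = 2) FPKM, a ratio of 0.52. The log2 fold change was -0.92 (standard error 0.10, 95% interval -1.18 to -0.66), the fifth smallest unadjusted p (0.000356) of the 10776 genes tested with limma. The limma adjusted p of 0.554 did not pass, and an exact permutation test of 2 against 2 samples cannot give a two-sided p under 0.333. Leaving out either Foxa1/2cKO sample gave a log2 fold change of -0.94 (without cKO 1, adjusted p = 0.00178 from limma) or -0.90 (without cKO 2, adjusted p = 0.0431), where the lone sample is taken to vary like the control pair. Without cKO 1 the same test called 2559 of all genes, and without cKO 2 it called 19. Leaving out either control gave -1.01 or -0.83 with an adjusted p of 0.99995 or 0.99994 from limma. Only 5.68% of the 50-base stretches of the *H1f0* transcript occur in another annotated gene.

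The other linker histone genes did not share this order of samples. *H1fx*, the gene for H1X, was at 16.4 and 25.8 FPKM in control and at 18.1 and 11.1 in Foxa1/2cKO, and the groups overlapped. *Hist1h1c*, the most abundant replication-dependent linker gene, was at 22.5 and 18.9 FPKM in control and at 24.9 and 19.9 in Foxa1/2cKO. *Hist1h1e* was at 16.2 and 11.8 against 19.8 and 11.8 FPKM, and *Hist1h1d* at 12.8 and 10.8 against 20.2 and 12.4 FPKM. In both genes cKO 1 was the highest sample and cKO 2 lay close to the controls. *Hist1h1b* was at 8.75 and 7.70 FPKM in control, at 11.8 in cKO 1 and at 2.95 in cKO 2, so that the Foxa1/2cKO samples lay on either side of both controls. *Hist1h1a* showed the same order at 4.39, 3.56, 7.58 and 1.69 FPKM. The testis-specific genes *Hist1h1t* and *H1fnt* and the oocyte-specific *H1foo* had 1 read at most in all samples together.

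Without *H1f0*, the linker histone genes summed to 79.9 ± 1.74 FPKM in control (SD, n = 2) and to 81.1 ± 30.1 FPKM in Foxa1/2cKO (SD, n = 2). *H1f0* made up 41.5% and 45.4% of linker histone FPKM in the controls and 24.0% and 34.5% in cKO 1 and 2. The share was 14.2 percentage points lower in the mean of Foxa1/2cKO, with groups that did not overlap (exact permutation test, two-sided p = 0.333, the smallest that 2 against 2 samples allow). The share of the *Hist1h1* genes was 46.7% and 36.7% in control and 62.5% and 53.3% in Foxa1/2cKO. How much of the replication-dependent *Hist1h1* mRNAs the libraries captured is unknown. All these shares are of FPKM and carry that limit. In cKO 1 the lower *H1f0* share came with a higher *Hist1h1* sum, and in cKO 2 the whole linker sum was lower, at 91.3 FPKM against 134.8 to 144.0 in the other samples.

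**Figure D1:**
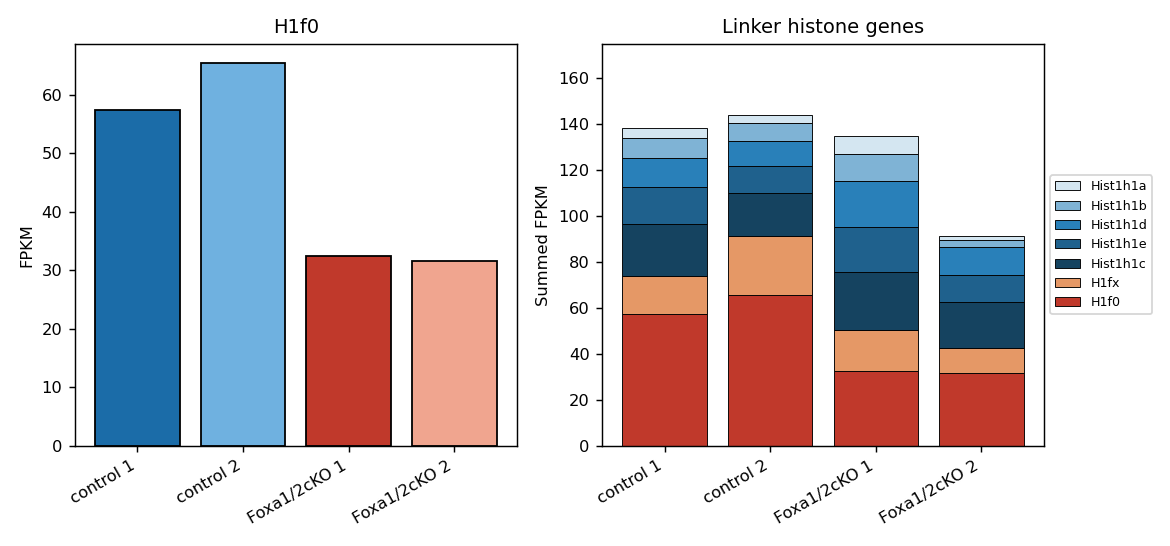
FPKM of *H1f0* (left) and FPKM of the 7 linker histone genes above 1 FPKM stacked by gene (right) in each of the 4 samples; bars are single samples, with no error bar. *H1f0* was at 57.4 and 65.4 FPKM in control and at 32.4 and 31.5 in Foxa1/2cKO, while the stack was as tall in cKO 1 (134.8 FPKM) as in control 1 (138.5) and shorter in cKO 2 (91.3).

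The replication-independent core variant genes *H3f3b*, *H2afy*, *H2afx*, *H3f3a*, *H2afz* and *H2afv* had the highest mean FPKM of the histone genes. *H3f3b* and *H3f3a*, which encode the same H3.3 protein, had mean FPKM of 340.1 and 138.1 over the 4 samples. Together they held 91.6% to 96.9% of all H3 FPKM, a share that also carries the unknown capture of replication-dependent mRNAs. *H3f3b* was at 344.3 and 377.4 FPKM in control and at 342.9 and 295.9 in Foxa1/2cKO. The groups were next to each other without overlap, and the log2 fold change of -0.18 (95% interval -0.48 to 0.13, limma adjusted p = 0.863) did not pass the test. *H3f3a* was at 136.5 and 136.6 FPKM in control and at 122.8 and 156.7 in Foxa1/2cKO, on either side of the controls. Its log2 fold change of 0.02 turned to -0.01 when samples were scaled to all recovered reads. Retrocopies or overlapping genes hold 79.5% of its 50-base stretches and 10.6% of those of *H3f3b*, so that the level of *H3f3a* is less certain.

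*H2afy*, the gene for macroH2A1, a variant linked to silent chromatin, was at 179.3 and 191.2 FPKM in control and at 192.0 and 209.2 in Foxa1/2cKO. The groups were separated by under 1 FPKM, and the log2 fold change was 0.11 (95% interval -0.13 to 0.36, limma adjusted p = 0.864). *H2afy2*, the gene for macroH2A2, had 14 reads over the 4 samples (0.0472 to 0.231 FPKM) and was not tested. *H2afj* was at 30.1 and 29.8 FPKM in control and at 28.7 and 32.7 in Foxa1/2cKO, with a log2 fold change of 0.03 that was below 0 when samples were scaled to all recovered reads.

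*H2afz* and *H2afv* encode the H2A.Z proteins found at promoters. *H2afz* was at 132.8 and 142.6 FPKM in control, at 132.9 in cKO 1 and at 70.3 in cKO 2. *H2afx* was at 156.8 and 164.5 FPKM in control, at 169.0 in cKO 1 and at 87.0 in cKO 2. For both genes 1 Foxa1/2cKO library lay at control levels and the other far under them. *H2afv* was at 71.1 and 73.7 FPKM in control and at 72.6 and 60.9 in Foxa1/2cKO, with cKO 2 again the lowest. The fitted log2 fold changes were -0.50 (95% interval -1.31 to 0.31) for *H2afz*, -0.40 (95% interval -1.24 to 0.44) for *H2afx* and -0.12 (95% interval -0.42 to 0.18) for *H2afv*. None passed at a limma adjusted p of 0.05. Without cKO 2 *H2afz* came to -0.05 and *H2afx* to 0.07, and without cKO 1 they came to -0.96 and -0.88, where both passed (adjusted p = 0.000688 and 0.000672 with limma), as did 23.7% of all genes tested. *H2afz* shares 69.6% of its 50-base stretches with other annotated genes, *H2afx* 9.66% and *H2afv* 0%. Of summed H2A FPKM, *H2afz* held 20.1% to 21.8% and *H2afx* 25.1% to 25.6% in 3 samples, against 14.1% and 17.4% in cKO 2. *H2afy* held 28.7% to 29.2% in the 3 samples and 41.9% in cKO 2. *H2afv*, the other H2A.Z gene, held 11.0% to 11.4% in the 3 samples and 12.2% in cKO 2. Summed H2A FPKM was 499.6 in cKO 2 and 625.0 to 660.45 in the 3 samples. A smaller share of that sum came from *H2afz* and *H2afx* in cKO 2, and a larger share from *H2afy*.

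The other 6 replication-independent genes were listed at 0 in all samples: *H2afy3*, *H1fnt*, *H1foo*, *H2afb1*, *H2afb2* and *H2afb3*, several of them known from germ cells. A count of 0 allows up to 3 reads, which for transcripts of their annotated length would be 0.153 to 0.798 FPKM, counting error only.

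**Figure D2:**
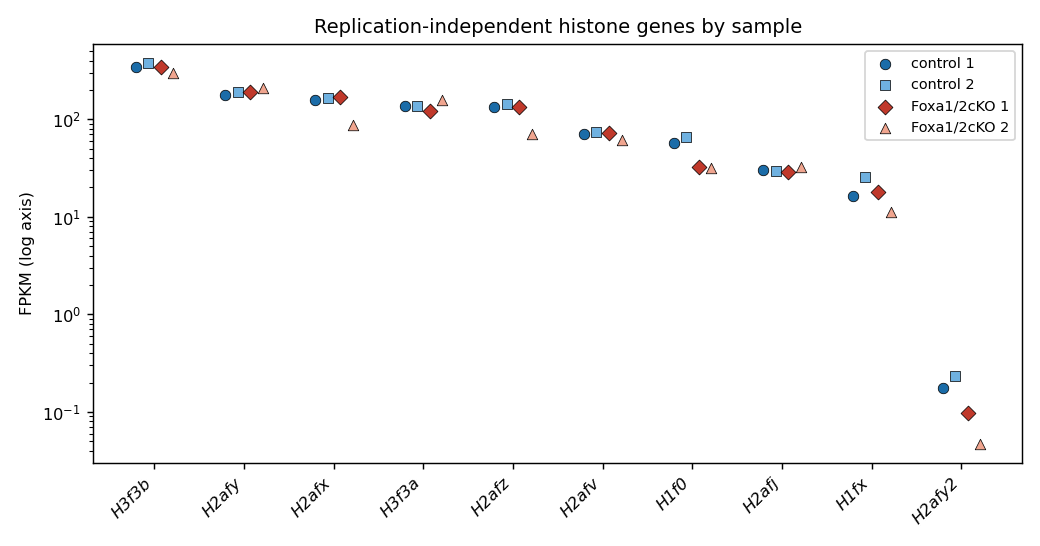
FPKM on a log axis of the 10 replication-independent histone genes above 0, with 1 point per sample. *H1f0* had both Foxa1/2cKO samples (32.4 and 31.5) under both controls (57.4 and 65.4), while *H2afx* and *H2afz* had only cKO 2 under the controls.

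The replication-dependent genes lie on chromosome 13 (*Hist1*, 54 genes, 21715763 to 23934851), chromosome 3 (*Hist2*, 10 genes, 96219865 to 96270132), chromosome 11 (*Hist3*, 3 genes, 58948920 to 58956830) and chromosome 6 (*Hist4*, 1 gene, 136801553 to 136804415) of mm10. Their levels were low. Of the 58 above 0, the mean FPKM ran from 0.0154 to 38.8 around a median of 2.85, while the median gene had 66.5 reads over the 4 samples together. Listed at 0 were 10 genes, *Hist1h2bq*, *Hist1h2br*, *Hist1h2ao*, *Hist1h2ap*, *Hist1h4m*, *Hist1h2ba*, *Hist1h2aa*, *Hist2h3c1*, *Hist2h3c2* and *Hist2h2aa1*. For 8 of these, at least 50% of the 50-base stretches are found in another annotated gene, as for 44 of all 68, and reads of near-identical copies may have been left out or split by the counting. At the depth of these samples 3 reads correspond to 0.0912 to 0.724 FPKM for the 10 genes. Whether the libraries selected polyadenylated RNA is not given in the sources used here, and the labels name total RNA. How much of these mRNAs the libraries captured is therefore unknown, and their levels relative to the variants carry that limit.

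Summed over all 68 genes, replication-dependent histone FPKM was 302.4 and 290.5 in the controls, 357.8 in cKO 1 and 210.6 in cKO 2. The controls differed by little and the Foxa1/2cKO samples lay on either side of them. The group means were 296.4 ± 8.43 (SD, n = 2) and 284.2 ± 104.1 (SD, n = 2), a log2 ratio of -0.06 (exact permutation test, two-sided p = 1). Without cKO 2 the log2 ratio was 0.27, and without cKO 1 it was -0.49. The median log2 fold change of the 49 tested genes was -0.18, beside 0.01 over all genes tested, and it came to 0.29 without cKO 2 and to -0.67 without cKO 1. The direction of the group difference changed with the Foxa1/2cKO library left out.

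Gene by gene, cKO 2 was the lowest of the 4 samples for 37 of the 49 tested replication-dependent genes (75.5%) and for 6 of the 9 replication-independent genes (66.7%), against 33.3% of all genes tested. For 21 of the 49, cKO 2 was the lowest and cKO 1 the highest sample, against 13% of all genes tested. cKO 2 lay under 50% of the control mean for 23 of the 49 (46.9%), against 5.25% of all genes tested. cKO 1 lay above the control mean for 37 of the 49 (75.5%), against 47.5% of all genes tested. These counts compare single libraries and not the genotypes.

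The genes that were lowest in cKO 2 encode core histones of every class. *Hist2h4*, an H4 gene, was at 9.92 and 9.21 FPKM in control, at 12.3 in cKO 1 and at 1.64 in cKO 2, from 57, 48, 51 and 7 reads. *Hist1h3c*, an H3 gene, was at 8.35 and 6.60 FPKM in control, at 10.6 in cKO 1 and at 1.88 in cKO 2. The H4 gene *Hist1h4i* was at 16.6 and 15.7 FPKM in control, 17.5 in cKO 1 and 7.83 in cKO 2. In each of these 3 genes cKO 1 was the highest sample and cKO 2 the lowest. *Hist1h4d*, at 10.7 and 10.8 against 12.8 and 6.86 FPKM, and the H2B gene *Hist2h2bb*, at 7.05 and 6.87 against 8.08 and 4.39 FPKM, had the same order. None of these 5 genes passed in the comparison of the groups (limma adjusted p = 0.864 to 0.913). All 50-base stretches of *Hist2h2bb* are found in another annotated gene. By class, the median log2 ratio of cKO 2 to the control mean was -1.55 over 10 H2A genes, -1.13 over 9 H3 genes, -0.80 over 14 H2B genes, -0.65 over 11 H4 genes and -0.25 over 5 H1 genes.

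cKO 2 was at or above the control mean for 9 of the 49 genes. The 2 most abundant replication-dependent genes were among them. *Hist3h2ba*, an H2B gene, was at 40.6 and 40.8 FPKM in control, 27.7 in cKO 1 and 46.05 in cKO 2, the reverse of the usual order. *Hist3h2a*, the H2A gene beside it, was at 26.04 and 23.05 against 24.6 and 26.1 FPKM. Neither passed the test between the groups (limma adjusted p = 0.896 and 0.935). All 50-base stretches of *Hist3h2a* are found in another annotated gene, with *Trim17* holding the most. *Hist2h2be*, an H2B gene with a long annotated end and no stem-loop match, was at 9.26 and 10.4 against 8.95 and 8.64 FPKM, with both Foxa1/2cKO samples just under the controls. By cluster, the summed FPKM of *Hist1* was 201.9, 192.4, 261.7 and 115.0 in the 4 samples, while that of *Hist3* was 68.1, 65.3, 53.3 and 73.1. Tested genes with a stem-loop match (33) had a median log2 ratio of cKO 2 to control of -1.07, and those without one (16), many of them annotated only to the stop codon, of -0.61.

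**Figure D3:**
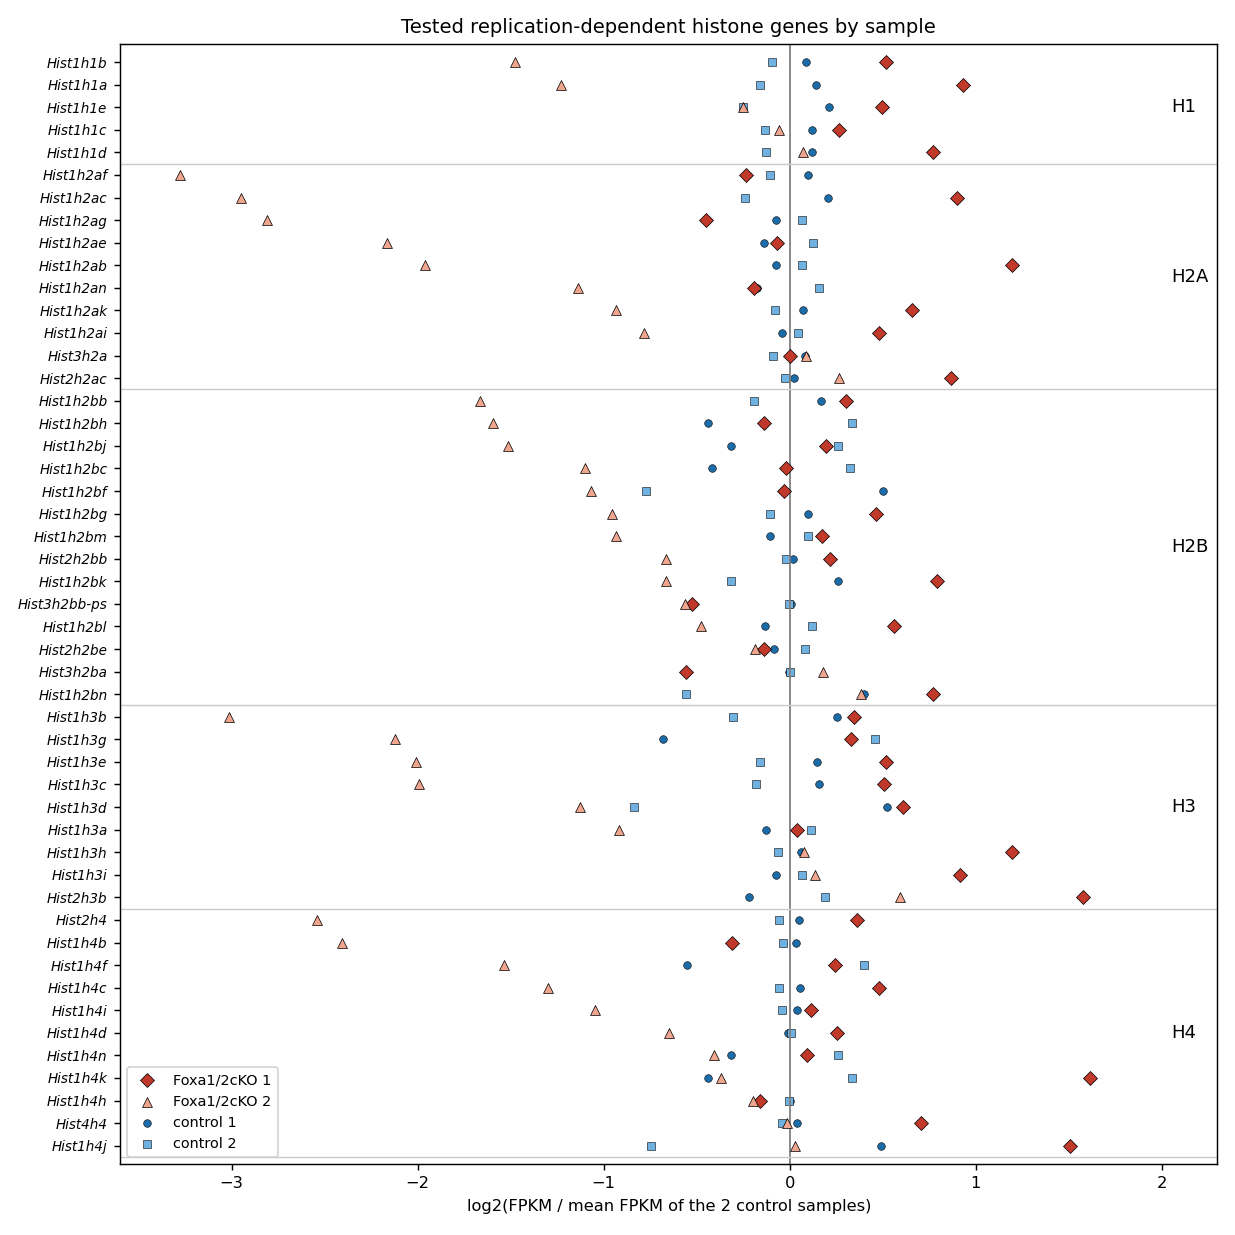
Each row is 1 of the 49 tested replication-dependent genes, grouped by histone class and ordered by cKO 2; the x axis is the log2 ratio of each sample's FPKM to the control mean. Triangles (cKO 2) lie left of the line for 40 genes and diamonds (cKO 1) right of it for 37.

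The groups did not overlap for 14 of the 58 tested histone genes, 9 of them lower and 5 higher in Foxa1/2cKO. Over all genes tested 17.8% were lower and 18.9% higher without overlap, so that the 9 and the 5 of 58 lie near or under the background. Without 1 of the samples the count was 16 (without control 2), 31 (without control 1), 45 (without cKO 2) or 52 (without cKO 1). It depended on the sample left out. Groups of 2 and 1 samples also separate more easily, so that these counts do not compare with the 14. The same counts over all genes tested are not given here. The replication-dependent genes higher in both Foxa1/2cKO samples were *Hist2h3b*, *Hist2h2ac*, *Hist1h3i* and *Hist1h3h*. *Hist2h3b*, an H3 gene at chr3:96268654-96269141, was at 1.33 and 1.76 FPKM in control and at 4.61 and 2.33 in Foxa1/2cKO, from 10, 12, 25 and 13 reads. Its log2 fold change was 0.77 (95% interval 0.00 to 1.54, unadjusted p = 0.0498 and adjusted p = 0.863 with limma). All of its 50-base stretches are also found in another annotated gene, as are 93.9% of those of *Hist1h3h*, 87.6% of those of *Hist1h3i* and 55.0% of those of *Hist2h2ac*. These levels may depend on how shared reads were counted. The sharing was counted over GENCODE genes, not over the RefSeq genes used for the alignment. *Hist2h2ac*, an H2A gene, was at 3.43 and 3.31 against 6.14 and 4.045 FPKM.

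Those with the smallest p among the genes lower in both Foxa1/2cKO samples were *Hist1h2ag*, *Hist1h4b*, *Hist1h2an*, *Hist1h2af* and *Hist3h2bb-ps*. *Hist1h4b* was at 6.53 and 6.22 FPKM in control and at 5.15 and 1.202 in Foxa1/2cKO, with the largest fitted decrease of the 58 genes, a log2 fold change of -1.003 (95% interval -2.31 to 0.30, limma adjusted p = 0.863). *Hist1h2ag* was at 2.55 and 2.81 against 1.96 and 0.382 FPKM, the last of these from 2 reads. In both genes cKO 1 lay nearer to the controls than to cKO 2. *Hist1h2an* was at 3.14 and 3.955 against 3.11 and 1.61 FPKM, so that cKO 1 lay just under control 1. *Hist1h2af* was at 2.00 and 1.73 against 1.58 and 0.193 FPKM, the last of these from 1 read. Of the 50-base stretches of *Hist1h2af*, 94% are also found in another annotated gene. The share is 85.8% for *Hist1h2an*, 78.9% for *Hist1h2ag* and 75.9% for *Hist1h4b*, and lower for *Hist3h2bb-ps*. These levels too may depend on how shared reads were counted. *Hist3h2bb-ps*, whose symbol marks a pseudogene, was at 1.44 and 1.43 against 0.996 and 0.969 FPKM, from 10, 9, 5 and 5 reads.

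**Figure D4:**
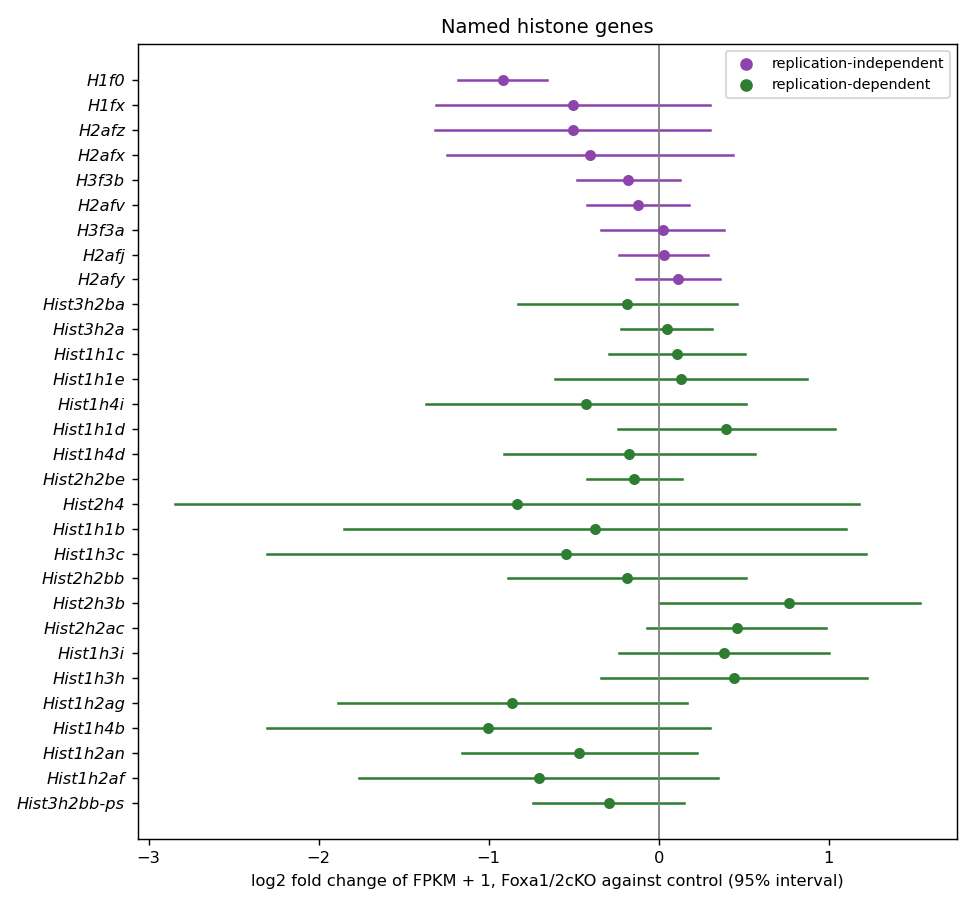
Fitted log2 fold change of FPKM + 1 (Foxa1/2cKO against control) with its 95% limma interval for the tested replication-independent genes (purple) and the named replication-dependent genes (green). The interval of *H1f0*, -1.18 to -0.66, lies apart from 0, that of *Hist2h3b* ends at 0.00, and the others span 0.

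The genes of S phase, in which histone mRNA is made, and of mitosis were also lowest in cKO 2. Of 25 S phase genes, cKO 2 was the lowest sample for 25, beside 33.3% of all genes tested. Their summed FPKM was 1123.8 and 1207.8 in control, 1169.7 in cKO 1 and 600.4 in cKO 2. Of 18 G2 and M phase genes cKO 2 was the lowest for 18, with sums of 814.5, 882.2, 925.3 and 316.9 FPKM. In these bulk samples fewer cycling cells and less RNA per cell cannot be told apart. No gene of either list passed at a limma adjusted p of 0.05. An unadjusted limma p under 0.05 was found for 1 of the 43, against 4.55% of all genes tested. That count does not set the lists apart. The gene was *Gins1*, for a subunit of the replicative helicase complex. *Gins1* was at 18.7 and 19.1 FPKM in control and at 13.3 and 9.64 in Foxa1/2cKO, with a log2 fold change of -0.69 (95% interval -1.12 to -0.26, adjusted p = 0.863 with limma). Markers of mature single-positive thymocytes, whose sum was 289.0, 327.6, 326.4 and 196.3 FPKM, were also lowest in cKO 2 for 6 of 7 genes. The part of cycling cells or of single-positive cells in the histone levels was not tested. *H1f0* was also lowest in cKO 2, at 31.5 FPKM. Its value in cKO 1, 32.4 FPKM, was within 1 FPKM of that and also under both controls.

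The factors that transcribe and process histone mRNA lay closer to the controls as a group. The 21 genes tested include the S-phase entry genes *Cdk2*, *Ccne1* and *Ccne2*. cKO 2 was the lowest sample for 7 of the 21, beside 33.3% of all genes tested. The summed FPKM was 743.2, 741.3, 734.0 and 712.4. The median log2 fold change was -0.01, beside 0.01 over all genes tested, and none of the 21 had an unadjusted p under 0.05. *Slbp*, which encodes the stem-loop binding protein and is itself made in S phase, was at 49.9 and 53.8 FPKM in control, 55.9 in cKO 1 and 30.8 in cKO 2. The cyclin E genes, which drive entry into S phase, had the same low value in that library, with *Ccne1* at 13.6, 14.4, 14.2 and 5.12 FPKM and *Ccne2* at 6.31, 6.95, 6.59 and 2.10. *Npat*, the transcriptional coactivator of the histone clusters, was at 9.08 and 8.65 against 9.85 and 9.53 FPKM, and *Lsm11*, a subunit of the U7 snRNP, at 5.21 and 5.09 against 4.87 and 5.08 FPKM. Of the histone genes outside the symbols used here, *Cenpa*, the centromeric H3, was at 47.0 and 47.8 FPKM in control, 49.6 in cKO 1 and 24.5 in cKO 2, and *Hp1bp3*, an H1-related protein, at 101.2 and 106.2 against 99.5 and 106.1 FPKM. *Hils1* and *H2bfm* were listed at 0.

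Markers of other cells did not follow the histone order throughout. The 6 B cell markers summed to 83.0, 54.6, 111.3 and 58.1 FPKM. All 6 were highest in cKO 1, as were 2517 of all 10776 genes tested. The 6 myeloid markers summed to 35.7, 21.5, 33.6 and 17.2 FPKM. Among the 6 erythroid markers the 4 globin genes were listed at 0 and the sum was at most 2.67 FPKM, and the 6 thymic epithelial markers summed to 3.52 to 4.69 with *Foxn1* at 0.0552 or less. The part of B cells in the higher *Hist1* levels of cKO 1 was not tested. The 10 CD69+DP thymocyte genes summed to 4439.3, 4423.5, 4202.8 and 5454.3 FPKM, highest in cKO 2.

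**Figure D5:**
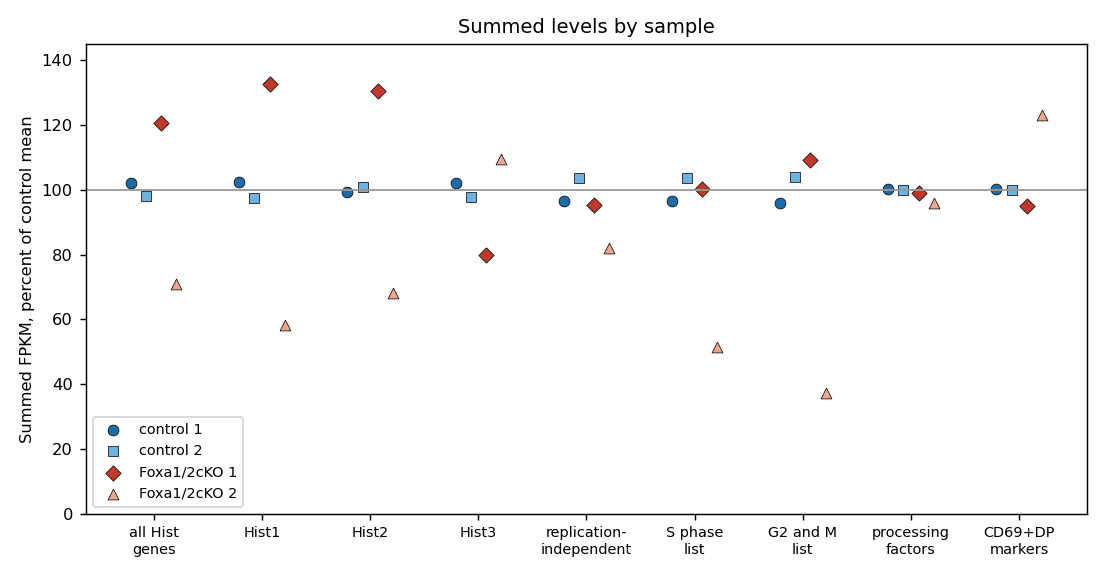
Summed FPKM of histone groups and comparison lists in each sample, as percent of the mean of the 2 controls. In cKO 2 all *Hist* genes (210.6 against 296.4 FPKM in control), the S phase list (600.4 against 1165.8) and the G2 and M list (316.9 against 848.3) lie under the line, while the histone mRNA processing factors (712.4 against 742.2) lie near it.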

How the data were processed

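RNA-seq of CD69+DP thymocytes was available for 4 samples, 2 control and 2 Foxa1/2cKO, grouped by the genotype in the labels. Reads had been aligned in BaseSpace to mm10 with RefSeq genes, and HTSeq in union mode gave the counts. The submitters' processing notes also name TopHat, Picard and DESeq2. The deposited values are FPKM per gene, and the step that made them is not given in the sources used here. The steps between FPKM values gave back whole reads (99.98% of genes above 0, within 0.003 of a whole number, up to a common divisor), with a whole gene length for 99.96%. For 6.19% of genes a multiple of the fewest whole reads was taken, since no gene is shorter than its coding sequence.

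Differences were tested with limma 3.58.1 in R 4.3.3 on log2(FPKM + 1) with a mean-variance trend, for genes that reached 1 FPKM in 2 or more samples, 2 residual and 2.69 prior degrees of freedom, and Benjamini-Hochberg adjustment at 0.05. Sums and shares were tested by exact permutation. With 2 samples per group, p-values rest on the spread between these samples, which limma moderates by the spread over all genes tested. Symbols were matched to GENCODE M21 transcripts and RefSeq promoters, the latter for 74 of 84 genes. Shared sequence is the percentage of 50-base stretches of a transcript found in another annotated gene on either strand. Where the annotation of a replication-dependent gene ran far beyond the length used for FPKM, a window of that length ending 80 bases after the stop codon was used.

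The histone genes and the comparison lists were chosen with earlier results of these data known. The named genes are every replication-independent gene above 0, the 12 replication-dependent genes with the highest mean FPKM, up to 5 per direction with the smallest p among tested genes whose groups do not overlap, and list genes that define a cell type or have an unadjusted p under 0.05. Others are named as examples chosen after their values were seen. The alternatives were upper-quartile scaling, a pseudocount of 0.1, no low-value filter, a minimum of 10 recovered reads per sample, scaling to all recovered reads, a replicate block, limma-voom on recovered reads, and leaving out each sample. Restricting the replication-dependent sum to genes with under 50% shared sequence was added after seeing the data. Figures were drawn with Python 3.11.15 and matplotlib 3.10.9. Exon usage and protein sequences were not analysed here. A gene of the comparison lists is not reported here.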

Additional observations from a re-analysis of the deposited data

How the results depend on the processing

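*H1f0* was lower in Foxa1/2cKO under all 11 alternatives, with a log2 fold change of -1.01 to -0.83. Its adjusted p was 0.416 to 0.866 with limma, except when a sample was left out. The gene passed only without Foxa1/2cKO replicate 1 (-0.94) or replicate 2 (-0.90). Over all genes, the 1 call became 0 with upper-quartile scaling, scaling to all recovered reads, a pseudocount of 0.1, limma-voom, a minimum of 10 reads per sample and no low-value filter (477 to 802 genes at an unadjusted p under 0.05), and 0 to 2559 when a sample was left out. The replicate block left the count at 1 and *H1f0* at -0.92 (adjusted p = 0.456 with limma) and changed no other call. The labels tie the replicate numbers to no shared animal or batch, and same-numbered samples did not deviate together (r = -0.06 across genes). With 2 samples per group the deviations within a group mirror each other, so that r cannot decide whether same-numbered samples shared a sort. The 14 histone genes with groups that do not overlap became 8 with a minimum of 10 reads per sample, which leaves 33 histone genes tested. They became 16 to 52 when a sample was left out. The shares over all genes under these settings are not given here. The median log2 fold change of the replication-dependent genes was -0.67 to 0.29 over the left-out samples, and the log2 ratio of their summed FPKM -0.49 to 0.27. With only genes under 50% shared sequence this ratio was -0.05. The difference in the *H1f0* share was -19.4 to -8.94 percentage points over the left-out samples.

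Of the other 31 named genes, 14 changed sign under some alternative, and the cause was not tested. Scaling to all recovered reads turned *H3f3a* to -0.013 and *H2afj* to -0.0038. Without Foxa1/2cKO replicate 1, where cKO 2 is the lone Foxa1/2cKO sample, 16 named histone genes beside *H1f0*, and *Gins1*, passed at an adjusted p of 0.05 with limma, as did 23.7% of all genes tested, and 0 of them did under any other alternative. The other sign changes came from leaving out a sample, over which the log2 fold changes ran as follows, mostly turning without Foxa1/2cKO replicate 2: *H3f3a* (-0.15 to 0.20), *H2afv* (-0.25 to 0.0050), *H2afj* (-0.059 to 0.12), *H2afx* (-0.88 to 0.073), *Hist3h2ba* (-0.54 to 0.17), *Hist3h2a* (-0.038 to 0.13), *Hist1h1c* (-0.049 to 0.26), *Hist1h1e* (-0.22 to 0.49), *Hist1h4i* (-0.96 to 0.11), *Hist1h4d* (-0.58 to 0.23), *Hist2h4* (-1.998 to 0.33), *Hist1h1b* (-1.22 to 0.47), *Hist1h3c* (-1.55 to 0.46) and *Hist2h2bb* (-0.56 to 0.19). Depth limits the replication-dependent genes, whose median member had 66.5 reads over 4 samples.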
